A study of Rattus norvegicus with 60 samples.

Results

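Hox genes encode homeodomain transcription factors and lie in the clusters a, b, c and d. Those measured here were the 21 genes, of 14324 genes with 1 gene symbol on the array, whose annotated symbol was Hox followed by a cluster letter and a paralogue number. Each had 1 of the 27342 probe sets on the Affymetrix array. All 21 passed the filter on noisy probe sets, which kept 27338 of the 27342, so passing it says little about quality. By paralogue number, 4 were in paralogues 1 to 3 (Hoxd1, Hoxa2, Hoxb3 and Hoxd3), 9 in paralogues 4 to 8 (Hoxa4, Hoxb4, Hoxc4, Hoxd4, Hoxa5, Hoxc5, Hoxa7, Hoxb7 and Hoxb8), 3 in paralogue 9 (Hoxb9, Hoxc9 and Hoxd9) and 5 in paralogues 10 to 13 (Hoxd10, Hoxa11, Hoxc12, Hoxb13 and Hoxd13). The rat annotation lists 39 Hox genes in the clusters a to d, so 18 were not analysed here.

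The order of Hox genes along a cluster follows the order of their expression along the body axis. In the mouse and chick spinal cord, low paralogue numbers are used in the hindbrain and neck, middle numbers in the brachial and thoracic cord and high numbers in the lumbar and sacral cord, where they set the identity of motor neuron columns together with the TALE cofactors of the Pbx and Meis families. Expression of many Hox genes persists in the adult cord at the level where it was laid down.

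The arrays held the cord of 60 female Long Evans rats, 8 or 9 weeks old, with 2 rats per group and time. A thoracic laminectomy was followed by a weight-drop contusion of the cord (SCI) or by no contusion (sham, S). Rats then received methylprednisolone (MP), a synthetic glucocorticoid, at 30 mg/kg, or its vehicle, 70% ethanol (EtOH). Sham rats with vehicle are named S-EtOH and with the drug S-MP, and the contused rats SCI-EtOH and SCI-MP in the same way. All 4 groups shared the laminectomy and the ethanol. Cord was taken at 7 times from 2 to 48 h (every 2 h up to 8 h, then 12, 24 and 48 h), and at 0 h from S-EtOH and SCI-EtOH only. RNA came from a 5-mm segment of cord at the lesion, so a difference in a bulk sample cannot tell fewer cells of a type from less RNA per cell. The deposited values were log2 values centred near 0 for each probe set. They hold differences between arrays and no level, so neither the levels of Hox genes nor the presence of a tissue's markers could be read from them, and a log2 difference is given throughout. The number of arrays limits the precision.

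Duplicate rats correlated over all probe sets with r from 0.164 to 0.904 (30 pairs). The lowest r was that of SCI-EtOH at 6 h, where duplicate 1 had an SD of 0.471 over probe sets against 0.227 in duplicate 2. That array held the highest value of Hoxd3, Hoxb4, Hoxd9, Hoxd10 and Hoxb13 among the 60 arrays. Without it, 17 Hox genes differed between SCI-EtOH and S-EtOH and 14 between SCI-MP and S-MP, the same numbers as with it. The 17 genes were not all the same, since Hoxd1 lost its call without that array.

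Rat promoters show what lies at the start of some of the genes that moved most. Windows from 250 bases before to 50 bases after the start were listed by RefSeq (GRCr8) for 11 of the 21 genes, those of Hoxd1, Hoxa2, Hoxd3, Hoxa4, Hoxc4, Hoxd4, Hoxa7, Hoxd9, Hoxd10, Hoxa11 and Hoxd13. Hoxa7 and Hoxd4 were lower in injured cord with and without MP, and Hoxd13 was higher in SCI-MP than in SCI-EtOH. Capitals mark the letters TCANGTG on either strand and the letters AGAACA on either strand, the latter being the letters of 1 arm of a glucocorticoid receptor site.
Hoxa7 (chr4:82648192-82648491, minus strand): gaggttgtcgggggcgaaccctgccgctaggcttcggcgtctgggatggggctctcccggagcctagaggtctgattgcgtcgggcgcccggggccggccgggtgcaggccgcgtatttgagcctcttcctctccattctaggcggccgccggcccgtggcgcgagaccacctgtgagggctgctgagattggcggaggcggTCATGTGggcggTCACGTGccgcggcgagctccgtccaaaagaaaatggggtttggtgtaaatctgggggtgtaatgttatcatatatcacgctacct
Hoxd4 (chr3:80021636-80021935, plus strand): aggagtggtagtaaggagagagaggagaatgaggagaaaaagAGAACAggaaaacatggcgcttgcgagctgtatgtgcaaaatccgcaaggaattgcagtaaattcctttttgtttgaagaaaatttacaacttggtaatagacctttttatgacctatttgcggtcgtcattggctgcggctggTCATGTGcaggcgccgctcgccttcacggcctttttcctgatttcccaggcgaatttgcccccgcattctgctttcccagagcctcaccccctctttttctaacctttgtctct
Hoxd13 (chr3:79977827-79978126, plus strand): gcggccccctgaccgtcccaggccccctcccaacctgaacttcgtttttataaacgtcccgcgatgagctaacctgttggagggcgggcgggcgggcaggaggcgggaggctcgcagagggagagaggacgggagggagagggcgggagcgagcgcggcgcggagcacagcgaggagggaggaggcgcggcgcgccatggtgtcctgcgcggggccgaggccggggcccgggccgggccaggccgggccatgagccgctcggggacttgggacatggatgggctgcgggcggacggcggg
The TCANGTG letters stood 2 times in the Hoxa7 window, 1 time in that of Hoxd4 and 0 times in that of Hoxd13. They occurred in 7 of the 11 Hox windows (63.6%) against 13.4% of 33469 rat promoters of the same length, and this motif was chosen after the sequences had been read. AGAACA stood in the Hoxd4 window alone among the 11 (20.7% of all promoters). The homeodomain core TAATTA stood in 0 of 11 (5.36% of all), and the joint PBX and HOX site TGATTNAT stood in Hoxa2 only (3.18% of all). The Hox windows held a median of 24 CG dinucleotides and 62.7% G and C, against 7 and 51.7% over all promoters. A match is a description of the letters and not a site of binding.

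The effect of injury was first read in rats without MP, as SCI-EtOH minus S-EtOH over the mean of 7 times from 2 to 48 h. Hox genes of the middle paralogues were lower in injured cord. Of the 12 genes of paralogues 4 to 9, 10 were lower and 0 higher, and the log2 difference was below 0 in all 12, with a median of −0.30. The range 4 to 9 joins groups listed apart at the start and was not itself a planned group. Its counts therefore describe these values and are no test of a boundary. In the planned groups 7 of 9 genes of paralogues 4 to 8 and 3 of 3 of paralogue 9 were lower. Lower genes were not confined to the range. Both genes of paralogue 3 were lower too, with a median of −0.19 against −0.24 in paralogue 4. Hoxd1 and Hoxa2, of paralogues 1 and 2, were higher. Where along the paralogues the difference ends was not tested. Over all 21 genes 13 were lower, where 27.5% of all genes were called lower, and 4 were higher, where 35.1% of all genes were called higher, by limma with Benjamini-Hochberg adjustment at 0.05. Together these are 17 genes against 62.7% of all genes called in either direction. The median was −0.16 over the Hox genes and 0.036 over all genes.

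For all readings the spread of each gene was estimated from all 60 arrays together, so their p-values are not independent. The same reading in rats given MP, SCI-MP minus S-MP, took its means from none of the arrays above. There too 10 of the 12 genes of paralogues 4 to 9 were lower and 0 higher, with a median of −0.28. Of the 2 genes of paralogue 3, 1 was lower, and their median was −0.13 against −0.14 in paralogue 4. Over the 21 genes 11 were lower (33.3% of all genes) and 3 higher (21.7% of all genes), 14 in all against 55% of all genes. The median was −0.18 over the Hox genes against 0.0037 over all genes. In both readings 10 genes were lower, namely Hoxd3, Hoxc4, Hoxd4, Hoxc5, Hoxa7, Hoxb7, Hoxb8, Hoxb9, Hoxc9 and Hoxd9, and 0 were higher in both.

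**Figure D1:**
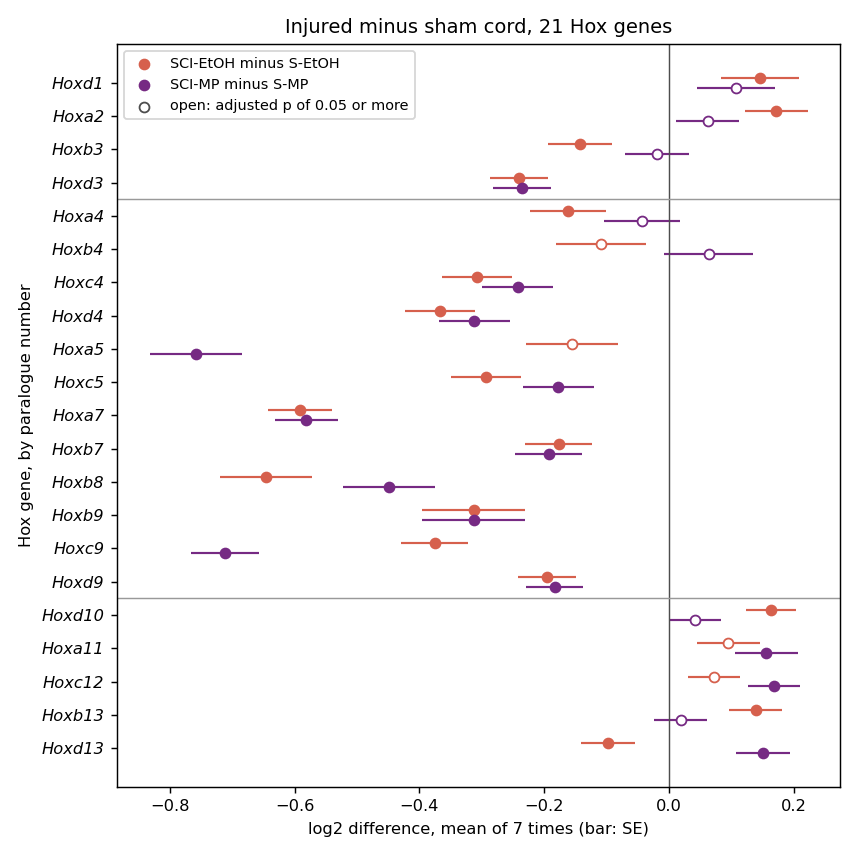
The x axis gives the log2 difference between injured and sham cord over the mean of 7 times and the y axis the 21 Hox genes by paralogue number, without MP (red) and with MP (purple). Bars are standard errors, open points have an adjusted p of 0.05 or more, and the grey lines part paralogues 1 to 3, 4 to 9 and 10 to 13. Points of paralogues 4 to 9 lie left of 0 except Hoxb4 with MP at 0.063.

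Hoxa7, a gene of the thoracic region in the mouse, had the smallest adjusted p of the Hox genes without MP. Over the 14 arrays of each group at 2 to 48 h its values ran from −0.10 to 0.44 (median 0.18) in S-EtOH and from −0.95 to 0.023 (median −0.41) in SCI-EtOH. In S-MP they ran from −0.0047 to 0.48 (median 0.16) and in SCI-MP from −0.86 to −0.070 (median −0.37). Both injured rats lay below both sham rats at 7 of 7 times with MP and at 7 of 7 without it. At 5 or more of 7 times this was so for 6 Hox genes without MP (16.6% of all genes) and for 9 with MP (23.4%), and the reverse for Hoxd10 without MP (18.1%) and Hoxc12 with MP (10.6%). Over all times the groups overlapped without MP and did not overlap with MP, where 5.12% of all genes had all 14 injured arrays below all 14 sham arrays (3.55% without MP). The difference was −0.59 (SE 0.051, adjusted p = 3.5e-12 in limma) without MP and −0.58 (SE 0.051, adjusted p = 4.7e-12) with MP, which is 0.664 and 0.668 of the sham value.

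Hoxb8, known in the mouse for its part in dorsal horn neurons, gave the largest mean difference without MP. Its values ran from 0.10 to 0.69 (median 0.47) in S-EtOH and from −0.90 to 0.66 (median −0.26) in SCI-EtOH. They ran from −0.23 to 0.77 (median −0.011) in S-MP and from −1.15 to 0.15 (median −0.32) in SCI-MP. The groups overlapped in both readings, and the highest S-MP value was that of duplicate 1 at 2 h. The difference was −0.65 (SE 0.074, adjusted p = 2.7e-09) without MP and −0.45 (SE 0.074, adjusted p = 3.0e-06) with MP. With quantile normalization these became −0.80 and −0.26 (adjusted p = 0.0070), farther apart.

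Hoxc9 directs the thoracic motor columns in the mouse and chick. Its values ran from −0.22 to 0.32 (median 0.11) in S-EtOH and from −0.72 to 0.20 (median −0.31) in SCI-EtOH. In S-MP they ran from −0.16 to 0.49 (median 0.25) and in SCI-MP from −1.03 to −0.044 (median −0.40). Both rats of SCI-MP lay below both of S-MP at 7 of 7 times, and both of SCI-EtOH below both of S-EtOH at 5 of 7. The difference was −0.38 (SE 0.054, adjusted p = 2.8e-07) without MP and −0.71 (SE 0.054, adjusted p = 1.5e-13) with MP.

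Hoxd4, a gene of the hindbrain and neck, ran from −0.31 to 0.28 (median 0.10) in S-EtOH and from −0.71 to 0.14 (median −0.39) in SCI-EtOH. It ran from −0.23 to 0.43 (median 0.15) in S-MP and from −0.57 to 0.11 (median −0.14) in SCI-MP. The groups overlapped in both readings, with differences of −0.37 (SE 0.057, adjusted p = 1.0e-06) and −0.31 (SE 0.057, adjusted p = 1.4e-05).

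Hoxb9 and Hoxc4 were lower by smaller amounts. Hoxb9, a thoracic gene, ran from −0.095 to 0.37 (median 0.22) in S-EtOH and from −0.58 to 0.54 (median −0.18) in SCI-EtOH, and from −0.47 to 0.62 (median −0.014) in S-MP and from −0.71 to 0.11 (median −0.32) in SCI-MP. Its difference was −0.31 in both readings (SE 0.082 in each, adjusted p = 0.0014 in each), and with quantile normalization the difference with MP was −0.18 (adjusted p = 0.11). Hoxc4, a gene of the neck region, ran from −0.13 to 0.28 (median 0.11) in S-EtOH and from −0.51 to 0.095 (median −0.24) in SCI-EtOH. In S-MP it ran from −0.29 to 0.31 (median 0.12) and in SCI-MP from −0.50 to 0.30 (median −0.21). Its differences were −0.31 (SE 0.056, adjusted p = 1.8e-05) and −0.24 (SE 0.056, adjusted p = 0.00041). For both genes the groups overlapped, with the highest SCI-EtOH value of Hoxb9 in duplicate 1 at 6 h.

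The other middle paralogues followed in the order Hoxc5 (−0.29 without MP and −0.18 with MP), Hoxd9 (−0.20 and −0.18) and Hoxb7 (−0.18 and −0.19), all past the test in both readings. Hoxa4 was lower without MP at −0.16 (adjusted p = 0.020) and stood at −0.044 with MP (adjusted p = 0.56). The call without MP was lost when duplicate 1 of SCI-EtOH at 2 h or 12 h or duplicate 2 at 6 h was left out, with adjusted p up to 0.057. Hoxb4 passed in neither reading (−0.11 and 0.063), and its duplicates did not correlate over the 30 pairs (r = −0.18, a value below that of all but 0.684% of genes). Hoxa5, a gene of the brachial cord and the phrenic motor column in the mouse, was −0.16 (SE 0.074, adjusted p = 0.065) without MP and −0.76 (SE 0.074, adjusted p = 6.9e-11) with MP. The difference without MP was −0.036 with quantile normalization and −0.18 with array medians set to 0, where it passed (adjusted p = 0.047).

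The 9 genes outside paralogues 4 to 9 did not move one way. Hoxa2, a gene of the hindbrain and dorsal horn, was higher without MP at 0.17 (adjusted p = 0.0038), and its difference with MP was 0.062 (adjusted p = 0.31). Hoxd1 was higher without MP at 0.14 (adjusted p = 0.044), a call lost without any 1 of 18 of the 60 arrays (adjusted p up to 0.13), among them duplicate 1 of SCI-EtOH at 6 h, where the difference became 0.10. It was also lost with array medians set to 0 (adjusted p = 0.062), array weights (adjusted p = 0.081) and the arrays of S-EtOH and SCI-EtOH alone (adjusted p = 0.080). Hoxb3 was lower without MP at −0.14 (adjusted p = 0.017) and −0.020 with MP (adjusted p = 0.76). The Hoxb3 call was lost without duplicate 1 of SCI-EtOH at 24 h, where its difference became −0.11 (adjusted p = 0.0501). Hoxd3 was lower in both readings, at −0.24 in each (SE 0.047).

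Genes of the caudal paralogues 10 to 13 lay mostly on the other side of 0. Hoxd10, a gene of lumbar motor neurons in the mouse, was higher without MP at 0.16 (SE 0.040, adjusted p = 0.00075), as was Hoxb13 at 0.14 (SE 0.042, adjusted p = 0.0052). With MP, Hoxa11 at 0.16 (SE 0.050, adjusted p = 0.0088), Hoxc12 at 0.17 (SE 0.042, adjusted p = 0.00084) and Hoxd13 at 0.15 (SE 0.043, adjusted p = 0.0036) were higher. Hoxd13 was lower without MP at −0.099 (adjusted p = 0.046), a call lost without any 1 of 21 arrays (adjusted p up to 0.14) and with array weights (adjusted p = 0.072). None of the 5 genes was higher in both readings. Their standard deviations over the 60 arrays were 0.113 to 0.175, against a median of 0.223 over all genes, and their duplicates correlated with r of 0.056 to 0.588. Whether these 5 genes were expressed in the segment could not be read, since the values hold no level.

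Over the time course, calls were sought at each of the 7 times, 147 combinations of gene and time. Without MP 37 combinations were called, 33 lower and 4 higher. This is 25.2% against 22.9% of all genes and times, of which 11.7% were lower and 11.2% higher. The Hox genes with most calls were Hoxa7, lower at 2, 4, 8, 12, 24 and 48 h, and Hoxd4, Hoxb8 and Hoxc9, each lower at 4 of 7 times. At 24 h 12 Hox genes were lower (18.1% of all genes at that time), 10 of them of paralogues 4 to 9, whose median difference was −0.49. At the other times that median was −0.063 (2 h), −0.39 (4 h), −0.033 (6 h), −0.30 (8 h), −0.43 (12 h) and −0.25 (48 h), with no steady course. The methods' analysis of variance with Tukey's test, run at each time, called 5 of the 147 combinations in place of 37, 4 at 12 h, 1 at 48 h and 0 at 24 h (6.02% of all genes and times). Hoxb8 had the largest differences, −1.21 at 24 h and −1.18 at 48 h (SE 0.19), or 0.431 and 0.441 of the sham value. Its values at 24 h were 0.59 and 0.69 in S-EtOH and −0.59 and −0.55 in SCI-EtOH.

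With MP 27 combinations were called, 23 lower and 4 higher (18.4% against 22.7% of all genes and times, with 15.1% lower and 7.59% higher). Hoxc9 was lower at the 6 times from 4 h, and Hoxa5 and Hoxa7 at the 5 times from 6 h. Hoxd4 was lower at 12, 24 and 48 h, as was Hoxb8. The largest differences were those of Hoxc9 (−1.35, SE 0.14) and Hoxa5 (−1.22, SE 0.20) at 12 h. At that time Hoxc9 stood at 0.49 and 0.48 in S-MP and −1.03 and −0.69 in SCI-MP, and Hoxa5 at 0.68 and 0.13 in S-MP and −1.07 and −0.56 in SCI-MP. The 2 rats of each group lay apart from those of the other for both genes.

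**Figure D2:**
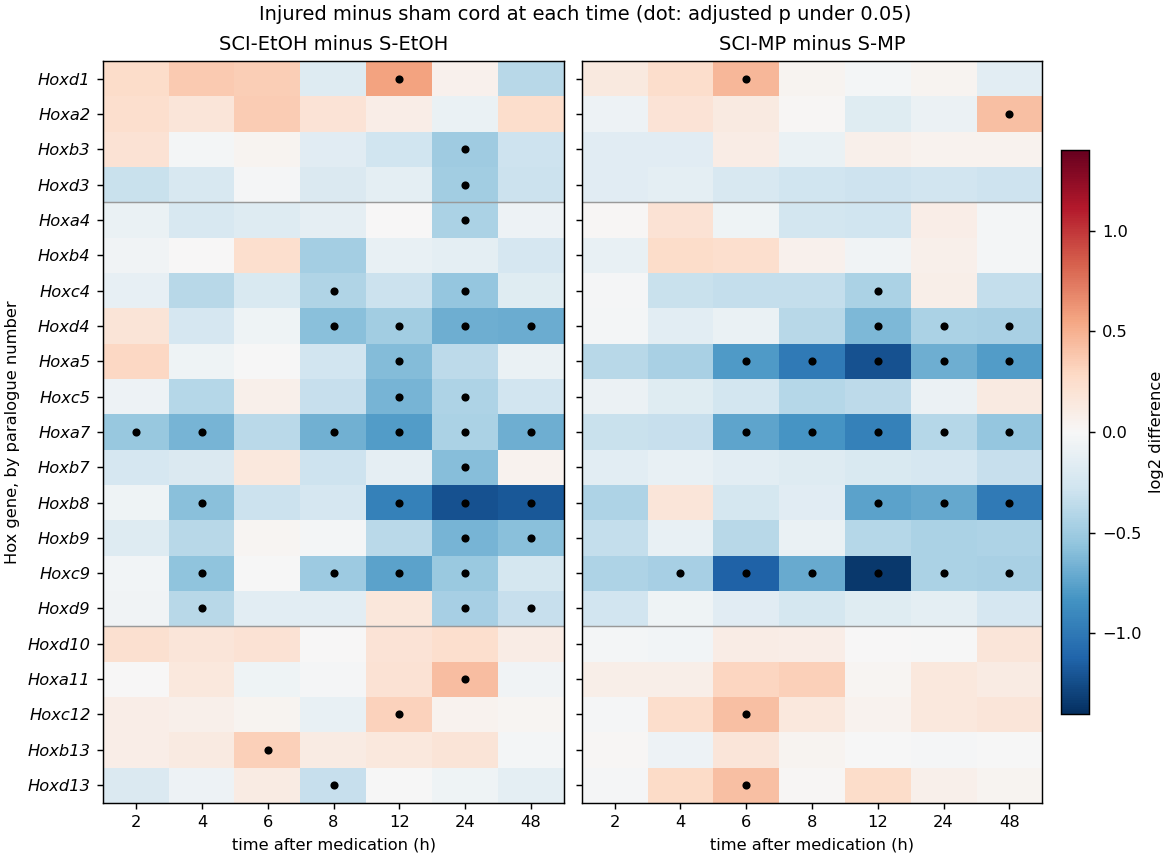
Each cell is the log2 difference between injured and sham cord for 1 Hox gene (rows, by paralogue number) and 1 time in h (columns), without MP (left) and with MP (right), with blue for lower and red for higher in injured cord. Dots mark an adjusted p under 0.05, 37 on the left and 27 on the right.

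Whether the injury difference changed with time was tested as its mean at 24 and 48 h minus that at 2, 4 and 6 h. Without MP it moved down for Hoxb8 (−0.88, SE 0.18, adjusted p = 0.00020), Hoxd4 (−0.65, SE 0.14, adjusted p = 0.00030), Hoxd1 (−0.48, SE 0.15, adjusted p = 0.013) and Hoxb3 (−0.46, SE 0.12, adjusted p = 0.0040). These 4 genes compare with 14.8% of all genes moving down and 31.4% moving in either direction. With MP it moved down for Hoxb8 only (−0.68, SE 0.18, adjusted p = 0.0044), where 8.87% of all genes did and 24.8% moved in either direction. Leaving out any 1 of 16 arrays gave 2 genes. Hoxd4 with MP had a late minus early difference of −0.36 (adjusted p = 0.051). Hoxa7 had a late minus early difference of −0.045 without MP (SE 0.12) and −0.011 with MP (SE 0.12). When the arrays were quantile normalized, the late minus early calls were Hoxd4 alone without MP and none with MP, while the differences of Hoxb8 were −0.56 (adjusted p = 0.060) and −0.25 (adjusted p = 0.49). With duplicate 2 of SCI-EtOH at 6 h left out, 8 genes were called without MP.

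At 0 h 0 of 21 Hox genes were called in limma between SCI-EtOH and S-EtOH (0.0419% of all genes), and 3 had an unadjusted p under 0.05. These were Hoxd13 (−0.33), Hoxc4 (−0.33) and Hoxb8 (−0.42). Hoxd13 stood at −0.088 and −0.042 in S-EtOH and −0.34 and −0.44 in SCI-EtOH at 0 h, so the 2 injured rats were lower than both sham rats, and this difference did not pass the adjustment (adjusted p = 0.23). With array weights 3 genes were called at 0 h, with quantile normalization 1 and with the arrays of 0 h alone 1.

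In S-EtOH itself the Hox genes were followed over 8 times from 0 h. By limma's moderated F test 0 of 21 changed (1.65% of all genes), and 5 had an unadjusted p under 0.05, Hoxc5, Hoxa7, Hoxa2, Hoxc9 and Hoxa5. Hoxa7 had a mean of 0.40 at 0 h, −0.075 at 8 h and 0.35 at 48 h. Hoxc9 had means of 0.38 at 0 h, −0.099 at 6 h and 0.29 at 24 h, and Hoxa5 of 0.20, −0.38 and 0.22 at the same times. The sham values of these 3 genes were lowest at 6 or 8 h. With quantile normalization or array weights 9 genes were called over time in S-EtOH, and with the arrays of S-EtOH alone 8.

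**Figure D3:**
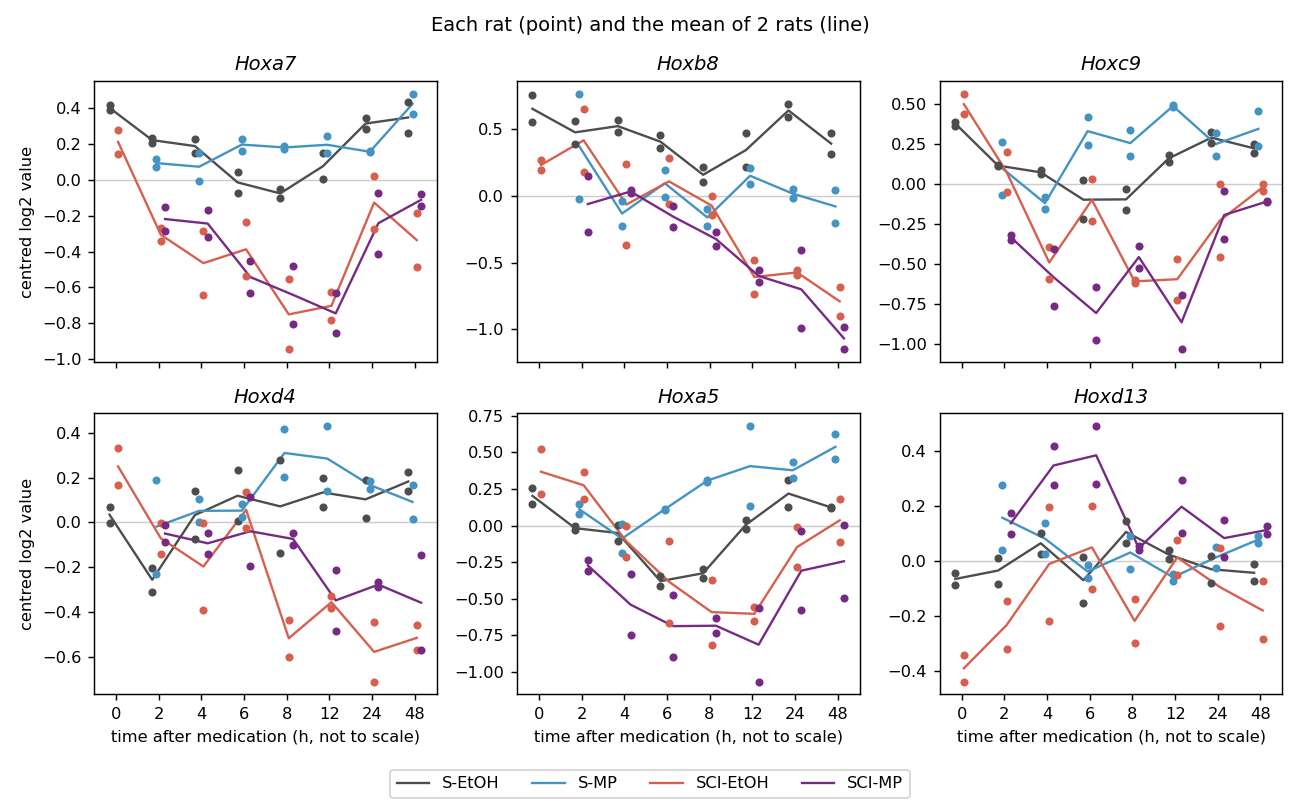
The y axis is the centred log2 value and the x axis the time after medication in h (not to scale) for 6 Hox genes, with 1 point per rat and a line through the mean of 2 rats. Hoxa7 of SCI-MP lies between −0.86 and −0.070, below all S-MP points, and Hoxb8 falls to between −1.15 and −0.90 in injured rats at 48 h except 1 SCI-EtOH rat at −0.68.

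The effect of MP in injured cord was read as SCI-MP minus SCI-EtOH, a comparison that shares the SCI-EtOH arrays with the reading of injury without MP. Of 21 Hox genes 5 were lower (31.7% of all genes) and 1 higher (10.4% of all genes), and 6 in all compares with 42.1%. The lower genes were Hoxa5 (−0.29, SE 0.074, adjusted p = 0.0020), Hoxb9 (−0.20, adjusted p = 0.043), Hoxc9 (−0.20, adjusted p = 0.0038), Hoxb8 (−0.18, adjusted p = 0.042) and Hoxd10 (−0.10, adjusted p = 0.035). Hoxb8, Hoxb9 and Hoxd10 lost their call when any 1 of 16, 15 and 12 arrays was left out, with adjusted p up to 0.12, 0.11 and 0.095, and also under quantile normalization, array medians set to 0, array weights and a fit of the arrays of this comparison alone. The number of genes called went from 6 to 3 without duplicate 1 of SCI-EtOH at 48 h or without duplicate 2 of SCI-MP at 2 h. It was also 3 without the 6 h arrays, where Hoxc9 was −0.11 (adjusted p = 0.11).

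Hoxd13, expressed at the tail end of the body axis, was the 1 Hox gene called higher with MP in injured cord. With array medians set to 0 Hoxd4 was called too (0.15, adjusted p = 0.030, against 0.13 and adjusted p = 0.055). The values of Hoxd13 ran from −0.32 to 0.20 (median −0.12) in SCI-EtOH and from 0.016 to 0.49 (median 0.14) in SCI-MP. They ran from −0.15 to 0.15 (median 0.014) in S-EtOH and from −0.072 to 0.28 (median 0.033) in S-MP. Both SCI-MP rats lay above both SCI-EtOH rats at 6 of 7 times (3.2% of all genes at 5 or more), and the mean was higher at 7 of 7. The difference was 0.28 (SE 0.043, adjusted p = 3.3e-06). Only the SCI-EtOH values lay mostly below 0, and the 14 arrays of each group overlapped.

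Hoxa5 ran from −0.42 to 0.31 (median −0.015) in S-EtOH, from −0.19 to 0.68 (median 0.22) in S-MP, from −0.81 to 0.37 (median −0.16) in SCI-EtOH and from −1.07 to 0.0061 (median −0.53) in SCI-MP. S-MP was the highest group and SCI-MP the lowest. MP minus vehicle was 0.31 in sham cord (SE 0.074, adjusted p = 0.0056), with both S-MP rats above both S-EtOH rats at 6 of 7 times, and −0.29 in injured cord, with the mean lower at 7 of 7 times.

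In sham cord, S-MP minus S-EtOH, which shares the S-EtOH arrays with the reading of injury without MP, 2 Hox genes were called, where 9.85% of all genes were (5.63% higher and 4.22% lower). Hoxa5 was higher, as given, and Hoxb8 was lower at −0.38 (SE 0.074, adjusted p = 0.00084; −0.67 with quantile normalization), with both S-MP rats below both S-EtOH rats at 6 of 7 times. At 5 or more of 7 times, 4.22% of all genes had both S-MP rats lower and 5.26% both higher. The next genes were Hoxc9 (0.14, adjusted p = 0.097), Hoxb9 (−0.20, adjusted p = 0.11) and Hoxd9 (−0.11, adjusted p = 0.15). Quantile normalization gave 6 genes, adding Hoxc9, Hoxb9, Hoxd9 and Hoxb3, and array weights 5. Calls over all 14324 genes rose too, from 807 higher and 604 lower. They were 2362 and 1914 with quantile normalization and 2018 and 1435 with array weights.

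**Figure D4:**
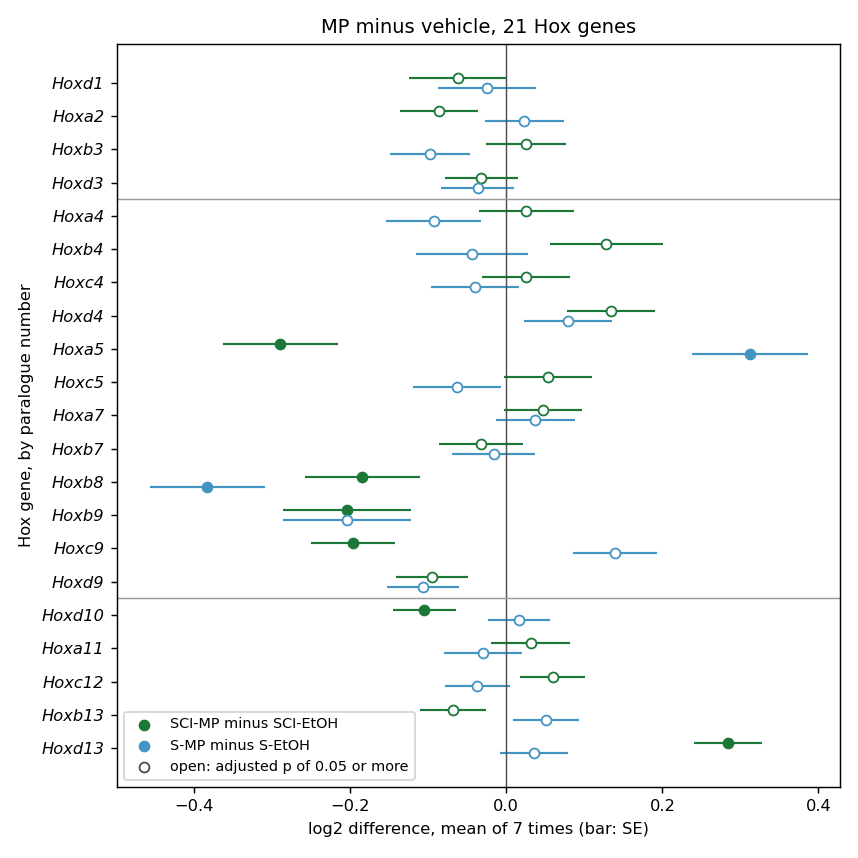
The x axis gives the log2 difference between MP and vehicle over the mean of 7 times for 21 Hox genes (y axis, by paralogue number), in injured cord (green) and in sham cord (blue), with standard errors as bars and open points at an adjusted p of 0.05 or more. Hoxa5 lies at −0.29 in injured and 0.31 in sham cord, and Hoxd13 at 0.28 in injured cord.

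The difference between the 2 injury effects was tested as an interaction, (SCI-MP minus S-MP) minus (SCI-EtOH minus S-EtOH). It was past the threshold for 3 Hox genes, where 25.7% of all genes were (5.45% above 0 and 20.2% below 0). With quantile normalization 5 Hox genes passed, and of all calls 31.2% were above 0 against 21.2% without it. Hoxa5 had −0.60 (SE 0.10, adjusted p = 7.8e-05, and −0.75 with quantile normalization), Hoxc9 −0.34 (SE 0.076, adjusted p = 0.0014) and Hoxd13 0.25 (SE 0.061, adjusted p = 0.0030). For Hoxa7 it was 0.0097 (SE 0.072, adjusted p = 0.94) and for Hoxb9 −0.00019 (SE 0.12). Without the 6 h arrays Hoxc9 had −0.20 (adjusted p = 0.057). At single times MP in injured cord called 3 of 147 combinations (2.04% against 7.1% of all genes and times), Hoxc9 at 6 h (−0.71, adjusted p = 0.0018), Hoxd1 at 12 h (−0.51, adjusted p = 0.033) and Hoxd9 at 12 h (−0.42, adjusted p = 0.018). The count was 1 to 11 as single arrays were left out, with 11 without duplicate 2 of SCI-EtOH at 6 h and 1 without duplicate 2 of SCI-EtOH at 12 h or either SCI-MP array at 12 h. In sham cord 0 of 147 were called in limma (0.205% of all genes and times). Set against sham rats without MP, SCI-MP differed in 14 Hox genes (51% of all genes), 11 lower (30.5% of all genes) and 3 higher (20.5%).

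Pairs of Hox genes were compared over the 30 pair means. Among the 66 pairs of genes of paralogues 4 to 9 the median r was 0.53, against −0.19 for the 108 pairs of 1 such gene with another Hox gene and 0.046 for the 36 pairs of 2 other Hox genes. The pair means share the injury difference, and the split at paralogues 4 to 9 follows that same difference. Within pairs of duplicates, where that difference is removed, the medians were 0.16, 0.069 and 0.32, so the genes outside paralogues 4 to 9 then had the highest median. The closest pairs were Hoxa5 with Hoxc9 (r = 0.91 over pair means and 0.59 within pairs), Hoxb8 with Hoxb9 (0.89 and 0.72) and Hoxa7 with Hoxc9 (0.89 and 0.22). Pairs from the same cluster had a median r of 0.14 (46 pairs) and pairs from different clusters one of 0.20 (164 pairs). Hoxb8 and Hoxb9 lie beside each other in cluster b on chromosome 10. The gene spans of 6 of the 21 genes overlap another listed gene, among them Hoxa5 with Hoxa3, and whether their probes read the other gene was not tested. Among the Hox genes Hoxb8, Hoxa5 and Hoxc9 had the widest range over the 60 arrays, 1.92, 1.74 and 1.59, against a median range of 1.06 over all genes.

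RNA of genes whose proteins act with Hox proteins or on the Hox clusters moved in both directions with injury. Their counts stand beside the shares over all genes given above, 35.1% higher and 27.5% lower without MP and 21.7% and 33.3% with MP. Of 7 TALE cofactors measured, 4 were lower and 1 higher without MP and 5 lower and 1 higher with MP. Meis2 was lower at −0.51 and −0.52, Meis1 at −0.41 and −0.34 and Pbx3 at −0.52 and −0.41, while Pknox1 was higher at 0.56 and 0.30. Among 5 other cofactors and inhibitors, Gmnn, which binds Hox proteins, was higher at 0.60 and 0.33, and Tshz3 was lower without MP at −0.16, the only other call. Of 18 genes of retinoic acid and Gdf11 signalling, which set the Hox pattern in the embryo, 6 were higher and 5 lower without MP and 5 and 8 with MP. Crabp2, a retinoic acid carrier, was higher at 1.41 and 1.39, while the carrier Crabp1 was lower at −0.40 and −0.23. Gdf11 was lower at −0.49 and −0.28. Of 24 Polycomb genes, whose products silence Hox clusters, 8 were higher and 5 lower without MP and 4 and 8 with MP, with Ezh1 lower at −0.53 and −0.71. Of 11 Trithorax genes and H3K27 demethylases, 4 were higher and 4 lower without MP and 3 and 4 with MP, and Kdm6b, a demethylase of H3K27, was higher at 1.52 and 1.37. Of 10 motor column genes downstream of Hox proteins, 3 were higher and 2 lower without MP and 3 and 4 with MP, with Ret lower at −0.55 and −0.73 and Runx1 higher at 0.91 and 0.92. No listed miRNA of the Hox clusters was found among the genes with 1 symbol, and probe sets with several symbols were not searched for them.

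Markers of several cell types were read for injury beside the Hox genes. Over all genes 35.1% were higher and 27.5% lower without MP, and 21.7% and 33.3% with MP. A count near its share is no result about that cell type. All 14 neuron markers were lower, with a median of −1.51 without MP and −1.32 with MP. Their mean per array ran from 0.10 to 0.42 in S-EtOH and from −2.20 to −0.34 in SCI-EtOH, and from 0.062 to 0.51 in S-MP and from −2.27 to −0.14 in SCI-MP. Without MP 4 of 6 motor neuron, 8 of 8 astrocyte and 7 of 9 oligodendrocyte markers were also lower. Higher were 9 of 11 neutrophil and monocyte and 4 of 4 erythrocyte markers, the latter with a median of 1.35. The part of these cell types in the Hox differences was not tested. For MP in sham cord 0 of 14 neuron markers were called, where 9.85% of all genes were. There 3 of 4 erythrocyte markers were lower (4.22% of all genes), with a median of −0.81. In injured cord 10.4% of all genes were higher and 31.7% lower with MP. There 2 neuron markers were higher and 1 lower. Of the neutrophil and monocyte markers 9 of 11 were lower, with a median of −0.46, and 5 of 8 skeletal muscle markers were higher. In the interaction 6 of 11 neutrophil and monocyte markers were below 0 (20.2% of all genes), with a median of −0.46. The part of these in the MP results of Hoxa5, Hoxb8, Hoxc9 and Hoxd13 was not tested. Of the other lists without MP, oligodendrocyte precursors had 3 of 6 markers higher and 3 lower, microglia and macrophages 3 of 7 higher, endothelium and pericytes 5 of 7 higher and 1 lower, meninges and fibroblasts 2 of 7 higher and 1 lower, skeletal muscle 4 of 8 lower, dorsal root ganglion and Schwann cells 1 of 6 higher and 1 lower, brain and brainstem position genes 2 of 4 higher, and ependyma 0 of 2 called. With MP several lists read otherwise. Skeletal muscle then had 4 of 8 markers higher and 1 lower (median 0.12 against −0.12 without MP), microglia and macrophages 3 higher and 3 lower, endothelium and pericytes 2 and 2, and oligodendrocyte precursors 1 and 3. Also with MP, 4 of 6 motor neuron, 7 of 8 astrocyte and 5 of 9 oligodendrocyte markers were lower, and 8 of 11 neutrophil and monocyte and 4 of 4 erythrocyte markers were higher.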

How the data were processed

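Each of 60 rats gave 1 array. The authors summarized the probes by RMA, normalized per chip and per gene and deposited log2 values. The centring reference of a probe set is unknown, so no floor could be set. Groups and times were taken from the sample labels. A probe set stayed in (27338 of 27342) if 16 or more of the 30 duplicate pairs had a CV below 50%. The authors report that fewer probe sets were left by their own filter. Genes were named by the platform annotation (15097 probe sets with 1 symbol, 323 with several, 11922 with none), with 15067 symbols matched by gene ID, and probe sets of a gene were averaged. A mean for each group at each time was fitted with limma 3.58.1 (R 4.3.3), with the spread of each gene estimated from all 60 arrays. The p-values were adjusted over 14324 genes by Benjamini-Hochberg for each contrast, with a threshold of 0.05. The plain analysis of variance with Tukey's test that the methods name was an alternative. Fits were tested on simulated data. The Hox genes and gene lists were chosen with earlier results of these data known. Values per array were given for up to 6 genes called in both injury readings, up to 3 per MP comparison and the 3 widest ranges. Other alternatives were the noise filter, quantile normalization, medians of arrays set to 0, array weights, the arrays of a comparison alone, 1 row per gene, no 6 h arrays, the duplicate number as a block and each array left out.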

Additional observations from a re-analysis of the deposited data

Results flagged for a closer look

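For 3 Hox genes the injury effect differed between rats with and without MP in the interaction test (25.7% of all genes). The interaction was −0.60 for Hoxa5, which was −0.76 with MP and −0.16 without it, −0.34 for Hoxc9 and 0.25 for Hoxd13, which was 0.15 with MP and −0.099 without it. For 4 genes (31.4% of all genes) the injury effect without MP differed between 24 to 48 h and 2 to 6 h. It differed by −0.88 for Hoxb8, −0.65 for Hoxd4, −0.48 for Hoxd1 and −0.46 for Hoxb3. With MP it differed by −0.68 for Hoxb8 only (24.8% of all genes). With quantile normalization the calls over time of Hoxb8, Hoxd1 and Hoxb3 were lost. Without the 6 h arrays the interaction call of Hoxc9 was lost. Groups of 2 rats are too small for a test of outlying arrays.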

How the results depend on the processing

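Signs were followed for the injury, MP and interaction differences over 7 times and for late minus early. No called Hox difference among these changed sign in any alternative limma fit. Signs of the calls at single times and of SCI-MP against S-EtOH were not followed. Among differences that did not pass the test, that of Hoxa7 for MP in injured cord went from 0.047 to −0.0034 with quantile normalization. Fits without the noise filter, with 1 row per gene and with the duplicate number as a block kept all counts within 1.5 times of those given. Leaving out the filter or taking 1 row per gene could not change the Hox differences. All 21 genes passed the filter and each had 1 row, so these fits do not test them. The duplicate numbers 1 and 2 are shared by number only. Over 43 pairs of groups the median correlation of same-numbered deviations was 0.00061, and with the replicate block 17 and 14 Hox genes were called for injury without and with MP, as without it. Under quantile normalization 3 genes were called for MP in injured cord, 6 for MP in sham cord (11 combinations at single times), 5 for the interaction, 1 at 0 h, 9 over time in S-EtOH, and 1 and 0 for late minus early without and with MP. With array weights these were 3 for MP in injured cord, 5 for MP in sham cord (7 combinations), 3 at 0 h and 9 over time in S-EtOH. With array medians set to 0, 6 combinations were called for MP in injured cord and 2 genes for late minus early with MP. With the arrays of a comparison alone, 3 genes and 0 combinations were called for MP in injured cord, 24 combinations for injury without MP, 1 gene at 0 h and 8 over time in S-EtOH. Without the 6 h arrays 3 genes were called for MP in injured cord. The methods' analysis of variance and Tukey's test called 5 combinations for injury without MP and 0 for MP in injured cord. For MP in sham cord the calls over all genes rose too, as given above. The cause of these changes was not tested. Leaving out each array in turn gave 15 to 18 genes for injury without MP, 14 to 14 with MP, 3 to 9 for MP in injured cord, 2 to 3 for MP in sham cord, 3 to 4 for the interaction and 13 to 16 for SCI-MP against S-EtOH. Genes of paralogues 4 to 9 lower were 9 to 11 without MP and 10 to 10 with MP. Combinations at single times were 30 to 46, 23 to 32, 1 to 11 and 0 to 1 in the same order of the first 4 comparisons. For MP in injured cord at single times the arrays that gave 5 to 7 were S-MP at 2 h, SCI-EtOH at 4, 24 and 48 h, duplicate 1 of SCI-EtOH at 6 and 12 h and duplicate 1 of SCI-MP at 6 h, and for MP in sham cord either SCI-EtOH array at 6 h gave 1. Late minus early gave 4 to 8 without MP and 1 to 2 with MP, where the arrays that gave 2 were S-EtOH at 8 h, S-MP at 12 h, SCI-EtOH at 4, 6 and 24 h, SCI-MP at 12 h, duplicate 1 of S-MP at 2 and 24 h and duplicate 2 of SCI-MP at 6 and 48 h, and 0 h and S-EtOH over time 0 to 0. With 2 rats per group and time, and no brightness over background in the values, dim probe sets could not be told from absent RNA.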
